A study of Mus musculus with 12 samples.

Results

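The Hes and Hey genes encode transcriptional repressors with a basic helix-loop-helix and an Orange domain. They were measured on Affymetrix gene arrays in MIN6 cells, a mouse line derived from an insulinoma and used as a model of pancreatic beta cells. The 9 members were Hes1, Hes2, Hes3, Hes5, Hes6, Hes7, Hey1, Hey2 and Heyl, found by gene symbol in the platform annotation, and they were 9 of 19938 genes measured. Each had 1 probe set (a group of probes summarized to 1 value) with its symbol alone, and 0 probe sets shared with another gene, so the single Hes3 probe set, 10518902, is the only one reported for the targeted gene.

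The study set siRNA against Hes3 beside a scrambled control siRNA under both of its culture conditions, to examine gene expression after a Hes3 knock-down. Classic conditions (CC) were serum medium at 20% oxygen, with 2 arrays for each siRNA. Defined conditions (DC) were serum-free medium at 5% oxygen, with 4 arrays for each siRNA, numbered 1 to 4 for scrambled and 1, 2, 5 and 7 for Hes3 siRNA. All cells had been kept in medium with 15% fetal calf serum, and all were transfected at 50000 cells per well with 2 µM siRNA and the reagent DharmaFECT4 and assayed after 12 to 24 hours. Serum and oxygen differed together between CC and DC, so their parts cannot be told apart. The labels describe the samples as replicates within 1 experiment on 1 cell line and name no separate cultures, so p-values measure the spread between these samples, which may be technical.

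The values are log2 signals. Array medians ran from 7.78 to 7.96, and the first principal component of the 12 arrays held 61.0% of the variance. The DC arrays 1 and 5 labelled Hes3 siRNA had the highest scores on it, 34.8 and 29.2, and CC scrambled array 2 the lowest, -32.7. Results for the Hes and Hey genes that rest on these arrays are given with and without them. Of 10 beta cell markers, 9 lay in the brightest quartile of genes, Ins2, Iapp, Pdx1 and Mafa among them, and Slc2a2 lay at the 39.4th percentile. Of 3 alpha cell genes measured, Gcg and Ttr also lay in the brightest quartile and Irx2 at the 54.9th percentile. Of 4 delta, PP and epsilon cell genes, Sst lay in the brightest quartile and the others between the 15.3rd and 65.0th percentiles. All 6 macrophage and endothelial markers lay below the median of all genes. The acinar markers lay between the 21.8th and 52.9th percentiles, the duct markers between the 6.35th and 55.3rd, and the fibroblast markers between the 25.2nd and 64.7th.

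As background, most Hes and Hey proteins bind N-box or E-box-like sites in DNA and recruit Groucho co-repressors of the Tle family. Hes1, Hes5, Hes7, Hey1, Hey2 and Heyl are known as direct targets of Notch signalling: the cleaved receptor enters the nucleus and joins RBPJ and a Mastermind protein on the promoter. Hes6 differs from its relatives and can counter Hes1, and Hes3 is known from neural stem cells, where it follows a STAT3 branch of the pathway. In the pancreas Hes1 holds progenitors undifferentiated by repressing the proneural factor Neurog3, which drives endocrine fate.

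RBPJ binds DNA with the core TGGGAA, and sequences upstream of the start were at hand for Hes5, Hes6, Hes7 and Hey2, which are 4 of the 9 members. The lines show the 250 bases before the start, 5′ to 3′ on the gene's strand, from RefSeq on GRCm38.p6, for the Notch targets Hes5 and Hes7, each called higher in at least 1 comparison, and for Hey2, which was called in none. Capitals mark the RBPJ core on either strand, so TTCCCA is the core read on the opposite strand.

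Hes5, chr4:154960673-154960922, plus strand: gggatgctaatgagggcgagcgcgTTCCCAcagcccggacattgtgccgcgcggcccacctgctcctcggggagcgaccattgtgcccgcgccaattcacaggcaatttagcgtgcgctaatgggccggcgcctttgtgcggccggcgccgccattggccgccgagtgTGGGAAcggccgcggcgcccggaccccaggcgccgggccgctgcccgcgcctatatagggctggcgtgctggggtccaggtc

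Hes7, chr11:69120203-69120452, plus strand: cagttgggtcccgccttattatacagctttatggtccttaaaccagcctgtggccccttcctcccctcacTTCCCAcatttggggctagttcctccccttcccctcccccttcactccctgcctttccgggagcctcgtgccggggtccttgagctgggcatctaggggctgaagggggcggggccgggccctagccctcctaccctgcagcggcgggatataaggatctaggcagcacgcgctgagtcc

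Hey2, chr10:30842784-30843033, minus strand: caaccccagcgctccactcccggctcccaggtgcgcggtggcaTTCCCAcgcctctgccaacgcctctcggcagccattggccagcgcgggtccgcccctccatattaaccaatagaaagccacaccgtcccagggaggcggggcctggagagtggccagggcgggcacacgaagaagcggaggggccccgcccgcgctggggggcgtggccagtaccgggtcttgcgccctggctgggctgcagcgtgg

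The Hes5 window held 2 matches, at 226 bases before the start on the opposite strand and at 82 bases before it on the gene's own strand. The Hes7 window held 1 match at 180 bases and the Hey2 window 1 at 207 bases, both on the opposite strand, and neither of the 2 Hes6 windows held one. TGGGAA occurred in 21.6% of all 32851 windows of the same length. Motifs bound by the Hes and Hey proteins themselves were also searched on both strands. The N-box, CACNAG, was found once in Hes7 and once in 1 Hes6 window, against 36.7% of all windows. The class C site, CACGNG, was found at 2 places in Hes7 and at 1 in the other Hes6 window, against 23.5% of all windows. At 116 bases before the Hes7 start these motifs overlapped. The E-box, CANNTG, was present in all 5 windows of these members and in 66.2% of all windows. These are letters in a window, and no binding was measured.

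Hes3, the targeted gene, did not show the loss that the label names. In CC its log2 signal was 7.23 and 6.82 in the scrambled arrays and 7.22 and 7.23 in the others. In DC it was 7.10, 7.24, 7.19 and 7.22 in the scrambled arrays and 7.37, 7.36, 7.38 and 7.25 in those labelled Hes3 siRNA. The CC groups overlapped, with scrambled array 2 alone low. In DC every array labelled Hes3 siRNA lay above every scrambled array, although array 7 lay only just above the highest of them. The differences were 0.20 ± 0.109 (log2, SE) in CC, with a 95% interval of -0.03 to 0.43, and 0.15 ± 0.0768 in DC, with an interval of -0.01 to 0.31. Adjusted p was 1.00 and 0.114.

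Leaving out scrambled array 2 gave a Hes3 difference of -0.01 in CC, and cyclic loess normalization gave -0.02 in DC. Without CC scrambled array 1 or 2, which enter the DC comparison only through the shared estimate of spread, the DC difference passed the threshold (adjusted p = 0.0386). The Hes3 probe set lies in quartile 2 of the mean signal, counted from the dim end, at the 29.8th percentile. Whether it covers the siRNA target, and whether a knock-down would be visible at this signal, cannot be told from these data. The labels were thus not borne out by the signal of this 1 probe set, which does not show that the knock-down failed. Every direction below is between arrays by their label.

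**Figure D1:**
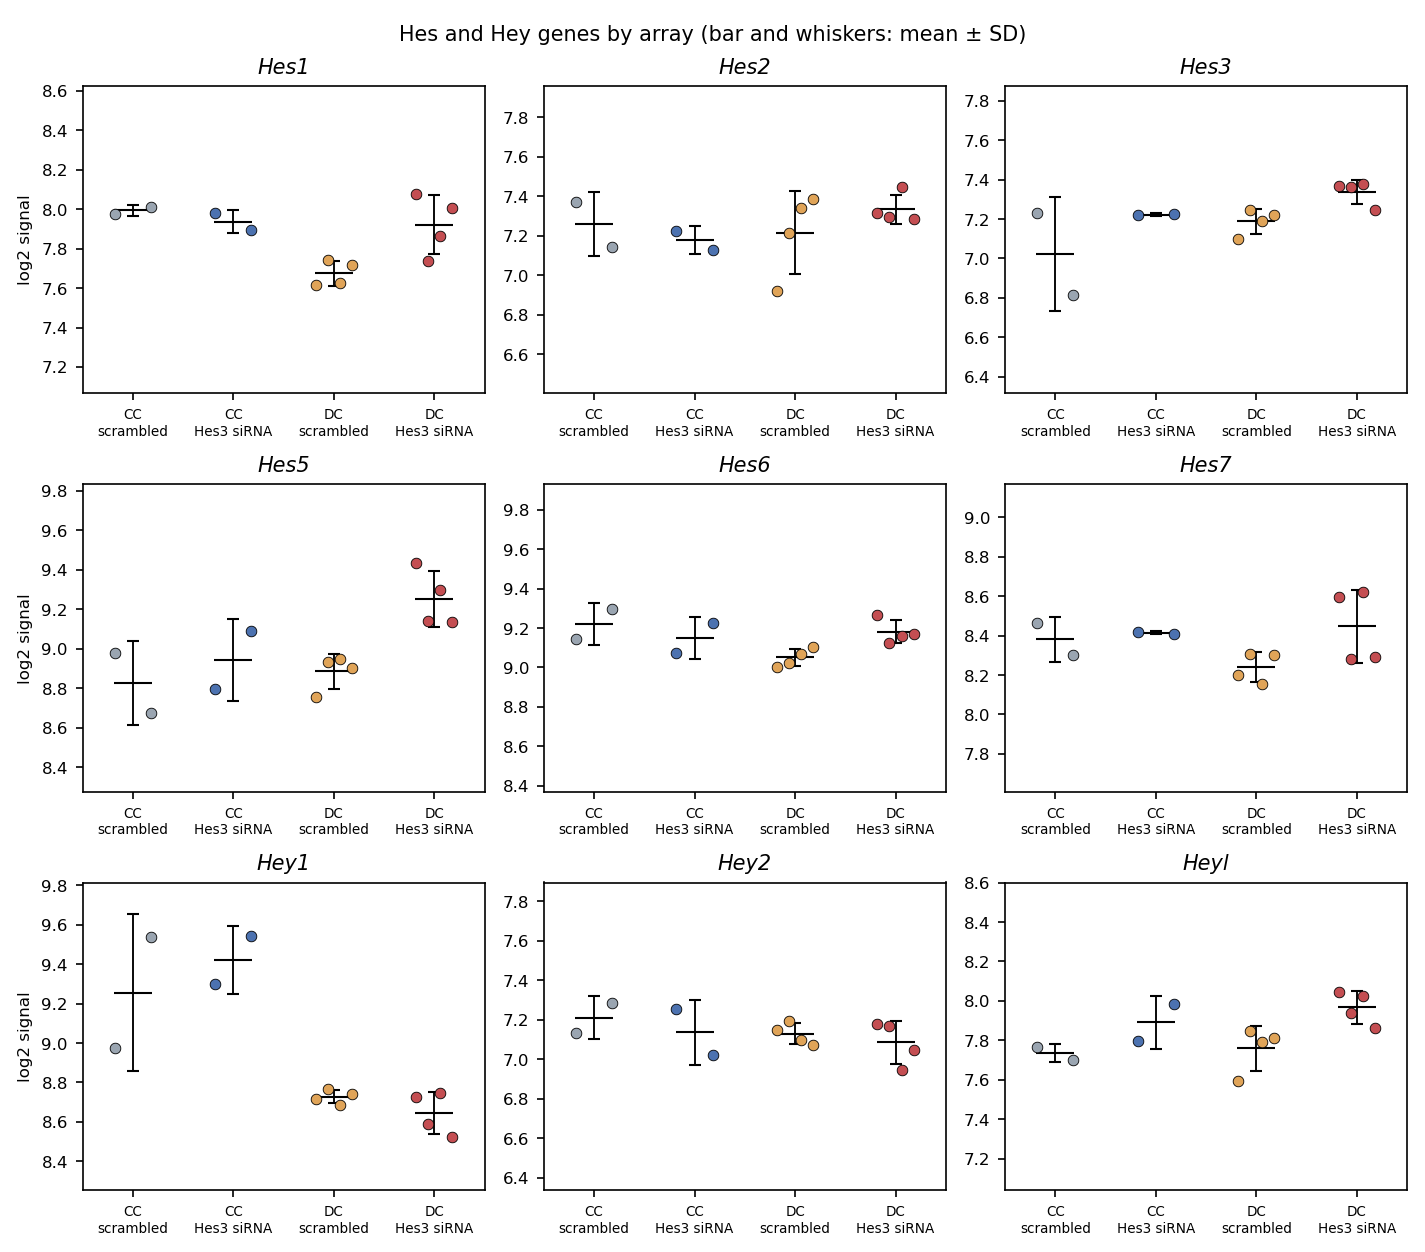
Log2 signal of each Hes and Hey gene by array, with CC scrambled, CC Hes3 siRNA, DC scrambled and DC Hes3 siRNA from left to right on the x axis. Points are arrays, and bars with whiskers are group means ± SD. Each panel spans the same length of log2 scale. Hey1 falls from CC to DC, from means of 9.25 and 9.42 to 8.73 and 8.65, and Hes5 and Hes3 are highest in DC with the Hes3 siRNA label.

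Across the groups the means of Hey1 spanned 0.77 on the log2 scale, a 1.71-fold range, and those of Hes5 0.43, a 1.34-fold range. The other 7 genes spanned 0.13 (Hey2) to 0.32 (Hes1). With the 4 group means of a gene in order, most neighbours overlapped. The exceptions were Hes5 and Hes3, where the DC arrays labelled Hes3 siRNA all lay above the next group, and Hey1, where both CC scrambled arrays lay above all DC scrambled arrays. For Hes5 and Hes3 the next group was CC with the same label, and 61.8% of all genes did not overlap between these groups. Between the scrambled groups of CC and DC 27.9% of all genes did not overlap. For Hes2, Hes6, Hes7, Hey2, Heyl and Hes1 every pair of neighbouring groups overlapped.

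In serum medium at 20% oxygen 0 of the 9 Hes and Hey genes passed the test between arrays labelled Hes3 siRNA and scrambled arrays (limma, p adjusted over all 19938 genes by the Benjamini-Hochberg method, threshold 0.05). The background was 0% of genes, and the median difference was 0.03 over the members and 0.02 over all genes. At an unadjusted p under 0.05, 0 of the 9 members and 2.08% of all genes were counted, and this comparison rests on 2 arrays against 2. Heyl, a Hey relative found in vascular and muscle tissue, had 7.77 and 7.70 in the scrambled arrays and 7.80 and 7.99 in those labelled Hes3 siRNA. It was the only member whose arrays did not overlap, against 26.9% of all genes, and its difference was 0.16 ± 0.0999.

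The other members did not pass in CC either. Hey1 differed by 0.17 ± 0.139 and Hes5 by 0.12 ± 0.126. Hes1, the Notch target that holds pancreatic progenitors, differed by -0.06 ± 0.101, with a 95% interval of -0.27 to 0.16. Hes2 was at -0.08, Hey2 at -0.07, Hes6 at -0.07 and Hes7 at 0.03. For Hes5 the 95% interval was -0.15 to 0.39 and for Hey1 -0.13 to 0.46, so changes in either direction were not resolved by 2 arrays a group.

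In serum-free medium at 5% oxygen 4 of the 9 genes were higher in the arrays labelled Hes3 siRNA, namely Hes5, Hes1, Heyl and Hes7, and 0 were lower. This stands against 28.9% of all genes higher and 18.3% lower, 47.2% in all, and the median difference was 0.15 over the members and 0.06 over all genes. The split of those calls moved with the scaling: 5769 genes were higher and 3639 lower on the deposited values, 2906 and 5022 with arrays centred on their medians, 3383 and 2353 after quantile scaling, and 1694 and 2603 after cyclic loess. With scrambled array 1, or array 1 or 5 of the Hes3 siRNA label, left out, 2 members passed (Hes1 and Hes5), and with both of those labelled arrays left out 0 did. The share of all genes called was then 28.9% to 30.4% with 1 of these 3 arrays out and 1.66% with both labelled ones out.

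Hes5, a Notch target best known from neural progenitors, had the largest difference of the family. Its signal was 8.76, 8.93, 8.95 and 8.90 in the scrambled arrays and 9.43, 9.14, 9.30 and 9.14 in arrays 1, 2, 5 and 7 labelled Hes3 siRNA. The groups did not overlap, and arrays 1 and 5 were the highest. The group means were 8.89 ± 0.0885 and 9.25 ± 0.143 (SD, n = 4 each), a difference of 0.37 ± 0.0892, or 1.29-fold (adjusted p = 0.00706). Hes5 stayed past the threshold without any single array and under each scaling, at 0.46 with quantile, 0.41 with cyclic loess and 0.29 with median centring. Without arrays 1 and 5 together it was 0.25, with an adjusted p of 0.119.

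Hes1 was 7.62, 7.74, 7.62 and 7.72 in the scrambled arrays and 8.08, 7.74, 7.87 and 8.005 in those labelled Hes3 siRNA. Array 2 labelled Hes3 siRNA lay among the scrambled arrays, and the other 3 lay above them. The difference was 0.25 ± 0.0715, or 1.19-fold (adjusted p = 0.0144), and it passed without any single array. It fell short of the threshold under quantile (0.17, adjusted p = 0.0709), cyclic loess (0.12, adjusted p = 0.204) and median centring (0.17, adjusted p = 0.0529), and without arrays 1 and 5 (0.20, adjusted p = 0.130).

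Hes7, the oscillating repressor of the somite clock, was 8.20, 8.31, 8.16 and 8.30 in the scrambled arrays and 8.59, 8.28, 8.62 and 8.29 in those labelled Hes3 siRNA. Only arrays 1 and 5 were above the scrambled range. The difference of 0.21 ± 0.0818 was at the edge of the threshold (adjusted p = 0.0496), was lost in 8 of the 12 fits that left out 1 array, and was 0.05 without arrays 1 and 5. Heyl was 7.59, 7.85, 7.79 and 7.81 in the scrambled arrays and 8.05, 7.94, 8.02 and 7.87 in the others. Its groups did not overlap and differed by 0.21 ± 0.0706 (adjusted p = 0.0268). The call was lost under all 3 scalings (0.14 with quantile, 0.08 with cyclic loess, 0.14 with median centring), and when scrambled array 1, or array 1 or 5 with the Hes3 siRNA label, was left out (adjusted p = 0.0972, 0.0715 and 0.0732).

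The remaining members did not pass. Hes6 was 9.004, 9.03, 9.07 and 9.10 in the scrambled arrays and 9.26, 9.13, 9.16 and 9.17 in those labelled Hes3 siRNA, 2 groups that did not overlap, with a difference of 0.13 ± 0.0606 (adjusted p = 0.0844). It passed under quantile (0.23, adjusted p = 0.0170) and cyclic loess (0.19, adjusted p = 0.0322). Hes2 differed by 0.12 ± 0.0907 and turned to -0.05 under cyclic loess. Hey1 and Hey2, which act together in heart and vessel development, differed by -0.08 ± 0.0981 and -0.04 ± 0.0716. For Hey1 the 95% interval was -0.29 to 0.13. In all, 4 members had groups that did not overlap (Hes3, Hes5, Hes6 and Heyl), each with the Hes3 siRNA label higher, against 40.9% of all genes.

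**Figure D2:**
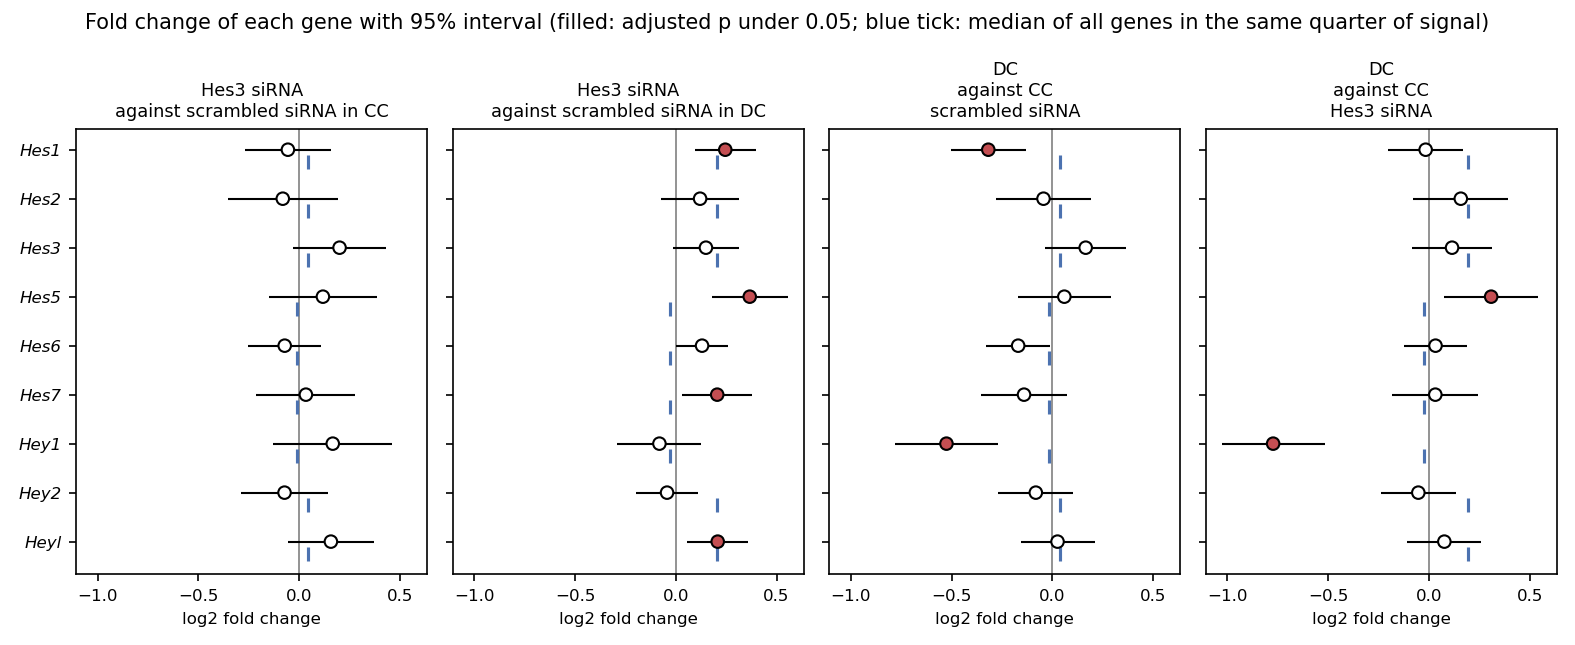
Log2 fold change of each gene with its 95% interval on the x axis in the 4 comparisons between groups. Filled points passed the threshold of 0.05 after adjustment, and the blue tick is the median of all genes in the same quartile of mean signal. In DC, Hes1 and Heyl sit beside that median of 0.21 and Hes5 and Hes7 sit above theirs of -0.03, while Hey1 is the lowest point in both comparisons of DC with CC.

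The signal level of a gene moved with this comparison. Genes were divided into 4 quartiles by mean signal, and from the dim end their median log2 differences in DC were 0.15, 0.21, -0.03 and -0.15, against 0.06 over all genes. Hes1, Hes2, Hes3, Hey2 and Heyl lie in quartile 2, where 56.9% of genes were higher. The differences of Hes1 (0.25) and Heyl (0.21) were near that quartile's median, and those of Hes3, Hes2 and Hey2 were below it. Hes5, Hes6, Hes7 and Hey1 lie in quartile 3, where 19.6% of genes were higher. Hes5 (0.37), Hes7 (0.21) and Hes6 (0.13) were above that quartile's median, and Hey1 (-0.08) was below it. The part of signal level in the calls was not tested beyond the scalings given.

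Markers of other cell types also differed in this comparison, in which 28.9% of all genes were higher and 18.3% lower. From the dim end, 36.9%, 56.9%, 19.6% and 2.39% of genes were higher in quartiles 1 to 4. In the DC arrays labelled Hes3 siRNA 5 of 5 acinar markers were higher, with summed log2 signals of 36.4 to 37.6 against 35.2 to 35.9 in the scrambled arrays. So were 4 of 5 fibroblast markers (40.2 to 41.1 against 39.0 to 39.4) and 3 of 4 duct markers (29.3 to 30.0 against 28.4 to 28.9). The macrophage and endothelial list had 4 of 6 higher (39.6 to 40.6 against 38.5 to 39.1), and the delta, PP and epsilon list 3 of 4 (35.5 to 36.7 against 34.6 to 35.1). Of the beta cell markers 3 were lower and 1 higher of 10 (114.3 to 115.6 against 116.0 to 116.4), and of the alpha markers 1 of 3 was higher (32.33 to 32.75 against 32.15 to 32.31). The counts of marker calls were not repeated without DC arrays 1 and 5 labelled Hes3 siRNA, when 1.66% of all genes were called. The summed levels of all 7 lists did not overlap between these groups, and neither did the signals of 40.9% of all single genes. The beta cell list was lower and the other 6 higher. Their part in the Hes and Hey differences was not tested. Of the 10 beta cell markers 9 lie in quartile 4. The median difference of that list was -0.11, against -0.15 over all genes of the quartile. The part of signal level in these lists was not tested. In bulk RNA, fewer cells of a type and less RNA per cell cannot be told apart.

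**Figure D3:**
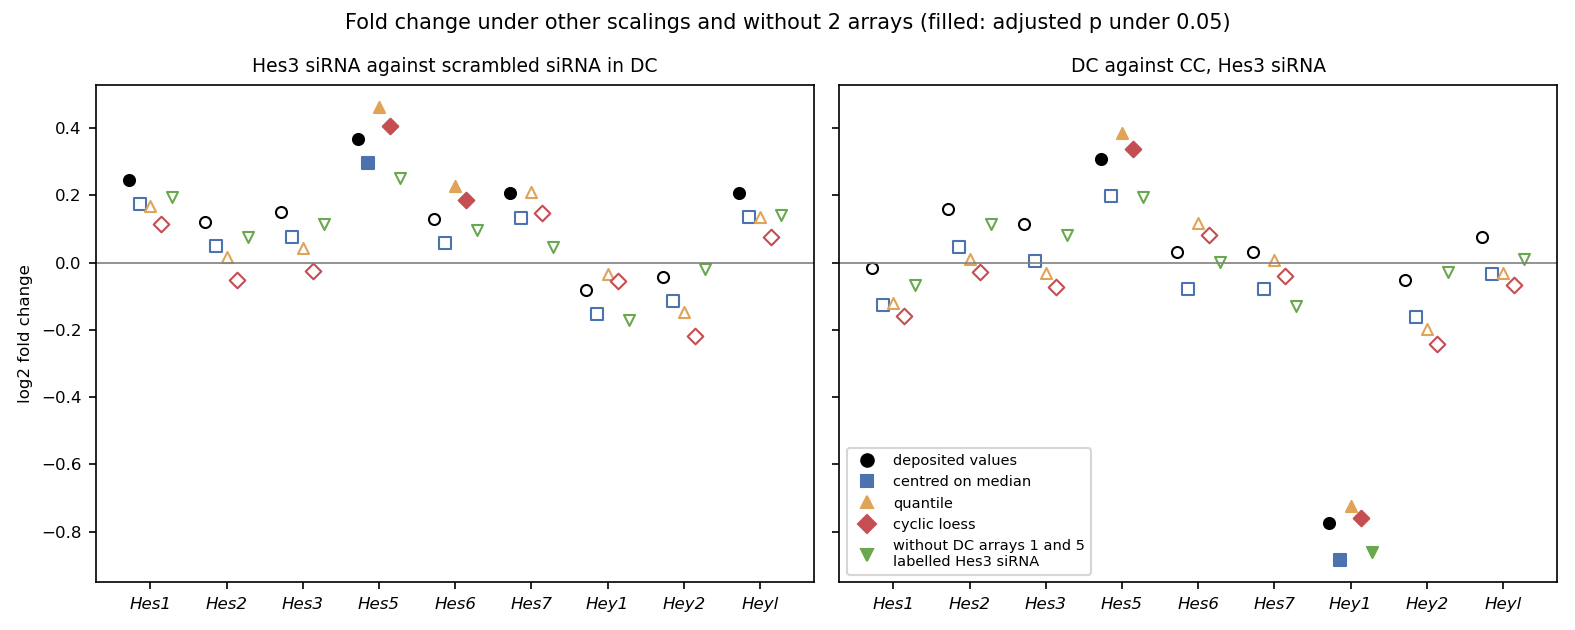
Log2 fold change on the y axis for each gene on the x axis, from the deposited values, after 3 other scalings and without DC arrays 1 and 5 labelled Hes3 siRNA. Filled symbols passed the adjusted threshold. For the siRNA labels in DC, Hes5 is filled in all but the last setting and Hes1, Hes7 and Heyl on the deposited values alone; for DC against CC with the Hes3 siRNA label, Hey1 is filled in all 5.

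The step from classic to defined conditions was read first in the scrambled arrays. Hey1 and Hes1, both Notch targets, were lower in DC, and 0 members were higher. That is 2 of 9, against 5.45% of all genes lower and 3.09% higher (8.54% in all), and the median difference was -0.08 over the members and 0.02 over all genes. Hey1 was 8.97 and 9.54 in CC and 8.72, 8.77, 8.69 and 8.74 in DC. The DC arrays were tightly grouped, both CC arrays lay above them, and the CC arrays were far apart. The means were 9.25 ± 0.398 (SD, n = 2) and 8.73 ± 0.0349 (n = 4), a difference of -0.53 ± 0.120, or 1.44-fold lower (adjusted p = 0.0107). Without CC scrambled array 2 the difference was -0.24 and did not pass (adjusted p = 0.317), so the call rests on that array. No member passed without it, when 3.72% of all genes did (353 higher and 389 lower). Hey1 alone passed without DC scrambled array 1, 3 or 4, when 6.66%, 6.64% and 6.62% of all genes did.

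Hes1 was 7.97 and 8.01 in CC and 7.62, 7.74, 7.62 and 7.72 in DC. All DC arrays lay below both CC arrays. The means were 7.99 ± 0.0282 and 7.68 ± 0.0638, a difference of -0.32 ± 0.0876, or 1.25-fold lower (adjusted p = 0.0323). It kept this size (-0.34 to -0.30) when single arrays were left out, but the adjusted p rose to as much as 0.211, and the call was lost without CC scrambled array 1 or 2 or DC scrambled array 1, 3 or 4 (adjusted p = 0.0661, 0.211, 0.0807, 0.0848 and 0.0558).

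Hes6 was 9.15 and 9.30 in CC and at most 9.10 in DC, so its groups did not overlap either, but its difference of -0.17 ± 0.0743 did not pass (adjusted p = 0.210). These 3 members without overlap, all lower in DC, stand against 27.9% of all genes without overlap in either direction. Hes7 differed by -0.14, Hey2 by -0.08, Hes2 by -0.04, Heyl by 0.03, Hes5 by 0.06 and Hes3 by 0.17 ± 0.0940 (adjusted p = 0.377). Without CC scrambled array 1, Hes3 was 0.37 higher in DC and passed (adjusted p = 0.0141).

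In the arrays labelled Hes3 siRNA, Hey1 was again lower in DC, and Hes5 was higher. That is 1 of 9 in each direction, against 21.2% of all genes higher and 18.8% lower (40.1% in all), and the median difference was 0.03 over the members and 0.09 over all genes. Called genes made up 17.1% of all without CC array 1 of this label and 11.8% without CC array 2. Hey1 was 9.30 and 9.54 in CC and 8.73, 8.59, 8.75 and 8.53 in DC. The groups lay well apart. The means were 9.42 ± 0.170 and 8.65 ± 0.106, a difference of -0.77 ± 0.120, or 1.71-fold lower (adjusted p = 2.59e-04). Hey1 passed in all 21 settings tried for this comparison, and without single arrays it ranged from -0.89 to -0.65. It was the only member to pass without CC array 1 or DC array 1 or 5, when 17.1%, 30.8% and 28.5% of all genes were called.

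Hes5 was 8.80 and 9.09 in CC and 9.43, 9.14, 9.30 and 9.14 in DC. The groups did not overlap, but CC array 2 and DC arrays 2 and 7 were close. The difference was 0.31 ± 0.109 (adjusted p = 0.0363). It was 0.16 without CC array 1 labelled Hes3 siRNA (adjusted p = 0.365), 0.25 without DC array 1 (adjusted p = 0.0832), 0.29 without DC array 5 (adjusted p = 0.0741) and 0.19 without both of these DC arrays (adjusted p = 0.233). Median centring moved the median of all genes in this comparison by -0.11, from 0.09 to -0.02, and Hes5 was then 0.20 (adjusted p = 0.159). The calls over all genes were split into 4231 higher and 3755 lower on the deposited values, and into 1034 and 4950 with centring, 2044 and 2981 with quantile and 1873 and 3258 with cyclic loess.

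The other members did not pass in this comparison. Hes2 (0.16) and Hes3 (0.11) had groups that did not overlap, as Hes5 and Hey1 did, which is 4 members against 61.8% of all genes. Heyl differed by 0.08, Hes6 and Hes7 by 0.03 each, Hey2 by -0.05 and Hes1 by -0.02. For Hes1 the 95% interval was -0.20 to 0.17. Side by side, the difference between DC and CC for Hes1 was -0.32 with scrambled siRNA and -0.02 with the Hes3 siRNA label, and for Hey1 it was -0.53 and -0.77. The DC arrays of each siRNA enter both the comparison by siRNA label and the comparison by culture, so these sets of values are not independent.

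Whether the siRNA difference itself changed between CC and DC was tested with an interaction term. For 0 of 19938 genes, and so for 0 members, did it pass in limma, and at an unadjusted p under 0.05 it held for 17.4% of genes and for 1 member, Hes1. The Hes1 difference was larger in DC by 0.30 ± 0.124, with a 95% interval of 0.04 to 0.56 and an adjusted p of 0.249. Hes5 gave 0.25 ± 0.155 (adjusted p = 0.385) and Hey1 -0.25 ± 0.170 (adjusted p = 0.426). Without CC scrambled array 2 the Hey1 term was -0.53 and passed (adjusted p = 0.0261), and so did 10.3% of all genes (2056). A difference between culture conditions in the response to the siRNA label was thus not shown for any member on the full set of arrays.

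The proteins that Hes and Hey factors work with were followed in lists, by function. Of 9 Notch receptors and ligands, 5 were higher and 0 lower in the DC arrays labelled Hes3 siRNA, against the 28.9% and 18.3% of all genes given above. The median of the list was 0.18. The inhibitory ligand Dll3 rose from 6.90 ± 0.0719 to 7.18 ± 0.0995 (SD, n = 4 each; 0.28 ± 0.0756, adjusted p = 0.00987), and the receptor Notch2 from 7.07 ± 0.0471 to 7.36 ± 0.0589 (0.28 ± 0.0603, adjusted p = 0.00450). Dll4 (0.26) and Notch4 (0.22), known from vessels, also rose. These 4 calls were lost after cyclic loess, with the sign kept. Notch2, Dll4 and Notch4 lie in quartile 2 of mean signal, where 56.9% of genes were higher and the median was 0.21. Dll3 lies in quartile 1, where 36.9% were higher and the median was 0.15. The remaining call lies in quartile 3, where 19.6% were higher. Of 8 genes of the nuclear Notch complex and its feedback, 1 rose, the pancreatic RBPJ relative Rbpjl (0.26), likewise lost after cyclic loess, and the list median was 0.13.

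Of 6 Groucho co-repressors, 2 were lower in this comparison and 0 higher, against 18.3% of all genes lower and 28.9% higher. The lower ones were Tle5, the short family member that lacks the WD repeats (-0.29), and Tle4 (-0.23). The list median was -0.09, and Tle5 lost its call under quantile and cyclic loess. Of the 3 bHLH-Orange relatives, which are Bhlhe40, Bhlhe41 and Helt, 0 passed (median 0.11). Of 10 proneural and endocrine bHLH activators measured, 3 were higher and 2 lower (median 0.14). Neurod1, which maintains beta cells and activates the insulin gene, fell from 11.48 ± 0.0741 to 11.01 ± 0.185 (-0.47 ± 0.0848, adjusted p = 0.00302). It kept its call in every setting tried. Neurod4 fell (-0.26), and the acinar factor Ptf1a (0.26) and Neurog1 (0.21) rose, both with calls lost under all 3 scalings. Of the 3 E proteins, the partners of such activators, Tcf12 (-0.24) and Tcf4 (-0.18) were lower (list median -0.18) and lost their calls under quantile and cyclic loess. Tcf12, Tcf4, Tle5 and Neurod1 lie in quartile 4 of mean signal, where the median over all genes was -0.15. Ptf1a lies in quartile 1 and Neurog1 in quartile 2, where the medians were 0.15 and 0.21. Of the 4 Id proteins, which bind E proteins without binding DNA, Id2 was lower (-0.53) and Id3 higher (0.39), with a list median of 0.15, and both calls were lost under cyclic loess. Of the partner genes named for this comparison, Neurod1 was the only one to keep its call with DC arrays 1 and 5 left out together. Dll3, Notch2, Rbpjl and Id3 kept theirs without any single array, and each of the rest lost its call without at least 1 array.

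**Figure D4:**
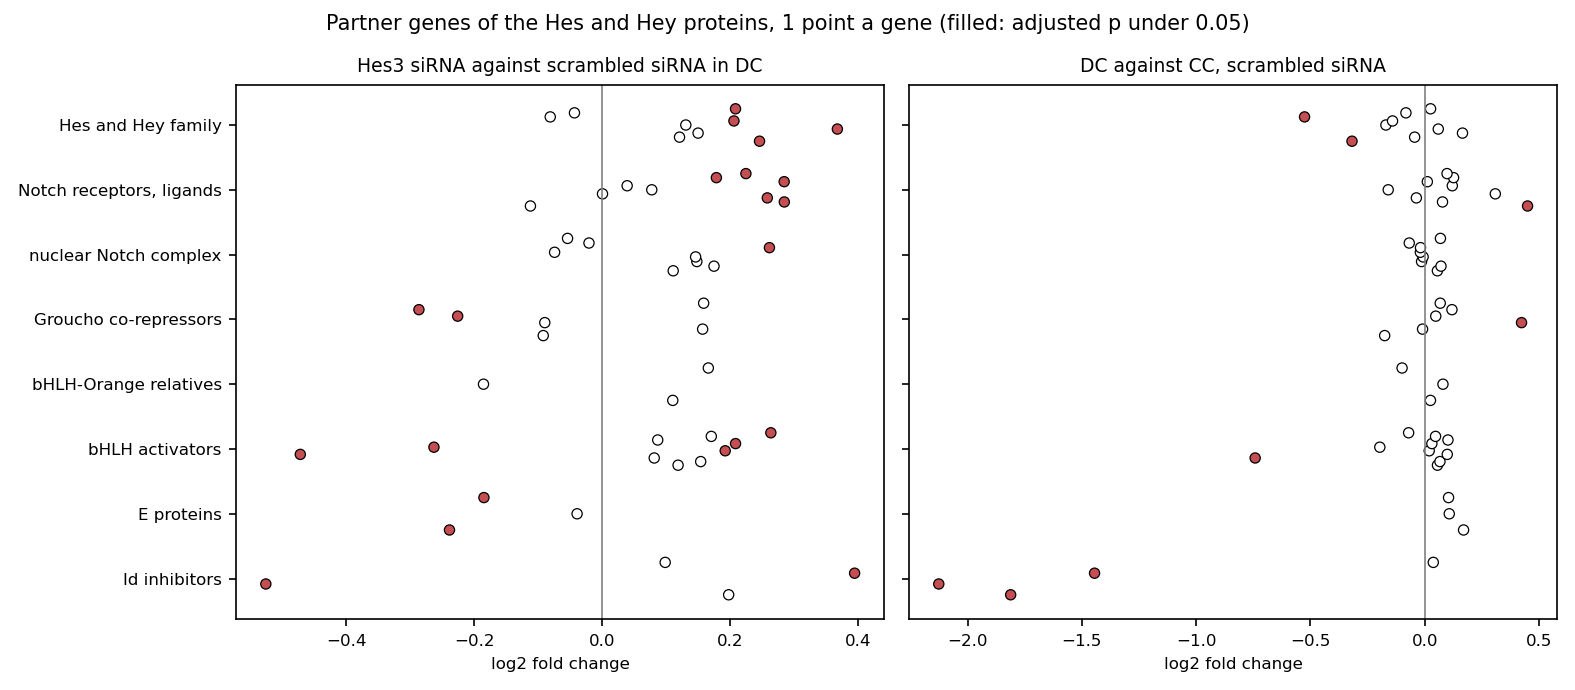
Log2 fold change on the x axis of each gene in the Hes and Hey family and the 7 partner lists on the y axis, for the siRNA labels in DC and for DC against CC in scrambled arrays. Each point is 1 gene, and filled points passed the adjusted threshold. Id1, Id2 and Id3 lie between -1.44 and -2.13 in the second panel, and Neurod1 at -0.47 is the lowest bHLH activator in the first.

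Between DC and CC in scrambled arrays the Id genes moved most among these lists: 3 of 4 were lower, with a list median of -1.63. Over all genes 5.45% were lower and 3.09% higher, with a median of 0.02. The partner values for this comparison are given from the full set of arrays. Id1 fell from 9.39 ± 0.235 (n = 2) to 7.58 ± 0.0474 (n = 4; -1.81 ± 0.0968, adjusted p = 4.07e-08), Id2 fell by 2.13 and Id3 by 1.44 on the log2 scale, and Id4 was at 0.04. Dll1, the ligand that signals to neighbouring cells, rose from 7.59 ± 0.00581 to 8.04 ± 0.116 (0.45 ± 0.0820, adjusted p = 0.00222). It was the 1 call among 9 receptors and ligands, while Hey1 and Hes1 were lower in the same comparison. Neither Hey1 nor Hes1 passed without CC scrambled array 2, when 3.72% of all genes did. Tle3 rose (0.42) as the 1 call of 6 Groucho genes. Bhlha15 (Mist1), a factor of secretory cells, fell (-0.74 ± 0.115) as the 1 call of 10 activators. The nuclear Notch list, the bHLH-Orange relatives and the E proteins had 0 calls, with medians of -0.01, 0.03 and 0.11, and the medians of the Notch receptors and ligands, Groucho genes and activators were 0.10, 0.06 and 0.04.

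In the arrays labelled Hes3 siRNA, DC against CC gave 5 of 9 receptors and ligands higher and 0 lower, against 21.2% of all genes higher and 18.8% lower, with Dll1 at 0.47, Dll3 at 0.35, Notch1 at 0.26 and Notch4 at 0.23. Dll1 kept its call in every setting tried, and the others lost theirs without either CC array labelled Hes3 siRNA. Dll1, Notch4 and the remaining call lie in quartile 2 of mean signal, where 36.1% of genes were higher and the median was 0.19. Dll3 lies in quartile 1, where 22.7% were higher and the median was 0.15. Notch1 lies in quartile 3, where 16.9% were higher and the median was -0.03. Of the Groucho genes 2 rose (Tle3 by 0.37 and Tle2 by 0.31) and 2 fell (Tle4 at -0.39 and Tle1 at -0.24). Of the activators 1 rose, Neurod2 (0.28), and 3 fell, Bhlha15 (-0.66), Neurod4 (-0.46) and Neurod1 (-0.44). Tle4, Neurod1 and Neurod4 lost their calls without CC array 2 of this label, and Tle1, Tle2 and Neurod2 without either CC array. Id1 (-1.81), Id2 (-2.87) and Id3 (-1.06) were again lower. The medians were 0.20 for the receptors and ligands, -0.03 for the Groucho genes, 0.10 for the activators and -1.43 for the Id genes, and the other 3 lists had 0 calls. Between the siRNA labels in CC, 0 genes of these 7 lists passed, at either the adjusted or the unadjusted threshold, against 0% and 2.08% of all genes.

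Last, the genes with profiles most like those of Hes3 and of the 2 members with the widest range of means were sought by Pearson correlation over the 12 arrays, as a description with no test. Hes3 was most like Klb, the co-receptor of FGF21 (r = 0.974), Cldn22, a claudin (r = 0.967), and Ripply2, a factor of somite formation (r = 0.959). Hey1 was most like Mfap3l (r = 0.985), Bag5, a co-chaperone (r = 0.980), and Rxylt1 (r = 0.974). Hes5 was most like the agouti gene (r = 0.989), Arsi, a sulfatase (r = 0.981), and Irgc1 (r = 0.979). The number of genes with r over 0.9 was 98 for Hes3, 401 for Hey1 and 1319 for Hes5. All 12 points share the shift between arrays described above. With the scores on the first principal component, Hes5 correlated at 0.880, Hes3 at 0.806 and Hey1 at -0.743.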

How the data were processed

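Gene expression was measured in 12 samples of MIN6 cells on Affymetrix arrays from 250 ng of total RNA each. The deposited table gives 1 log2 value per probe set and array for 35556 probe sets; the scale was inferred from its range of 3.94 to 14.4. The authors' background correction, normalization and summarization: not given in the sources used here. By the 2016 platform annotation 21789 probe sets had 1 symbol, 1621 several and 12146 none. A gene with several probe sets (999 genes) was represented by its brightest on average, and dim genes were kept. The number of arrays limits the precision.

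Groups came from the sample titles. Limma 3.58.1 in R 4.3.3 (lmFit, eBayes) fitted 1 mean per group over all 12 arrays, with 8 residual and 7.62 prior degrees of freedom, and gave 5 contrasts, two-sided, adjusted by Benjamini-Hochberg over 19938 genes with a threshold of 0.05. All 9 members, and up to 4 genes of each partner list past the threshold, by size of change, were named. The members, lists and alternatives were chosen with earlier results of these data known. Alternatives were quantile, cyclic loess and median scaling, a filter on genes under the 40th percentile of signal, trend and robust settings, a fit on the compared arrays alone, averaged probe sets, a replicate block, each array left out, and DC arrays 1 and 5 with the Hes3 siRNA label left out together. Aes was measured as Tle5, and some listed genes are not reported here.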

Additional observations from a re-analysis of the deposited data

Results flagged for a closer look

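In the DC arrays labelled Hes3 siRNA, array 7 stood apart from the other 3 for Hes3 itself. Its log2 signal was 7.25, the nearest other array was at 7.36, and this gap took up 0.882 of the range of the group, above Dixon's critical value for 4 arrays. It was the only such case among the 18 groups of 4 arrays examined, 2 for each gene, and chance marks about 1 in 20 groups.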

How the results depend on the processing

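Under the alternatives, 124 values of called members stayed past the threshold and 44 fell short of it. Hey1, lower in DC with the Hes3 siRNA label, passed in all 21 settings, and Hes5 between the siRNA labels in DC in 19 of 21. With quantile and with cyclic loess scaling 2 members (Hes5 and Hes6) were called between the siRNA labels in DC, and with median centring 1 (Hes5). The shares of all genes called were 28.8%, 21.6% and 39.8%. With median centring 1 member (Hey1) was called between DC and CC with the Hes3 siRNA label, against 30.0% of all genes. Without DC arrays 1 and 5 of that label the counts for these comparisons were 0 and 1, against 1.66% and 18.2% of all genes. Leaving out 1 array gave 2 to 5 members called between the siRNA labels in DC, 0 to 2 for DC against CC with scrambled siRNA, 1 to 2 with the Hes3 siRNA label and 0 to 1 for the interaction. Scrambled array 2 of CC gave the 0, where Hey1 was lost, and the 1. The shares of all genes called over these fits were 28.9% to 52.5% between the siRNA labels in DC and 3.72% to 11.9% for DC against CC with scrambled siRNA. They were 11.8% to 47.7% with the Hes3 siRNA label and 0% to 10.3% for the interaction.

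Same-numbered arrays shared little. Their deviations from the group means correlated between -0.441 and 0.253, and only 2 numbers recur in both groups of a comparison, so the numbers were not taken as pairs. With the replicate number as a block 0 members were called between the siRNA labels in DC (Hes5 0.44, adjusted p = 0.0758), 0 for DC against CC with scrambled siRNA (Hey1 -0.51, adjusted p = 0.0676) and 1 (Hey1) with the Hes3 siRNA label, when 3.11%, 4.03% and 20.3% of all genes were called. With this block Hey2 turned to 0.0022 between the siRNA labels in DC and to 0.036 for DC against CC with the Hes3 siRNA label, and Heyl to -0.014 with scrambled siRNA.

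All 57 values that changed sign belonged to members not called on the deposited values, and the cause was not tested. With quantile scaling Heyl was -0.0071 for DC against CC in scrambled arrays, Hes3 -0.031 and Heyl -0.032 with the Hes3 siRNA label, and Hey2 -0.067 and Heyl -0.024 in the interaction. With cyclic loess Hes2 was -0.052 and Hes3 -0.024 between the siRNA labels in DC. Heyl was -0.0035 for DC against CC in scrambled arrays, and Hes2 -0.028, Hes3 -0.073, Hes7 -0.039 and Heyl -0.066 with the Hes3 siRNA label. In the interaction Hey2 was -0.11 and Heyl -0.063. With median centring Heyl was -0.0081 in scrambled arrays, Hes6 -0.078, Hes7 -0.079 and Heyl -0.034 with the Hes3 siRNA label, and Hey2 -0.047 and Heyl -0.026 in the interaction. Without arrays 1 and 5 Hes7 was -0.13 for DC against CC with the Hes3 siRNA label, and Heyl -0.016 in the interaction.

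With single arrays left out, the siRNA difference in CC ranged from -0.20 to 0.033 for Hes2, -0.0057 to 0.41 for Hes3, -0.034 to 0.27 for Hes5, -0.15 to 0.0033 for Hes6, -0.048 to 0.11 for Hes7, -0.12 to 0.45 for Hey1 and -0.19 to 0.044 for Hey2. In DC it ranged from -0.075 to 0.0036 for Hey2. For DC against CC in scrambled arrays the ranges were -0.16 to 0.071 for Hes2, -0.040 to 0.37 for Hes3, -0.092 to 0.21 for Hes5 and -0.0067 to 0.082 for Heyl. With the Hes3 siRNA label they were -0.068 to 0.045 for Hes1, -0.042 to 0.11 for Hes6, -0.026 to 0.087 for Hes7, -0.17 to 0.064 for Hey2 and -0.018 to 0.17 for Heyl. In the interaction they were -0.26 to 0.16 for Hes3, -0.53 to 0.034 for Hey1, -0.087 to 0.15 for Hey2 and -0.044 to 0.15 for Heyl. Arrays give no counting depth, and with 2 arrays a group in CC small changes were not resolved.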
